A study of Mus musculus with 3 samples.

Results

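The nuclear noncoding RNAs Malat1, Neat1, Rmrp, Rpph1 and Terc were followed in total RNA from 3 mouse mammary tumours. They were chosen by name, as the rows of the gene tables with these symbols, and are 5 of 21881 symbols in all. Each had 1 row and a status of OK in all 3 tumours. RNA was depleted of ribosomal RNA and sequenced with a random-primed, directional kit from frozen tumours of NDL(UCD). This line was kept in culture, and its cells were placed in mammary fat pads of FVB/NJ females that were 6 to 8 weeks old, until tumours were 5 to 10 mm wide. NDL tumours are known to arise from an activated Erbb2 transgene driven by a mammary tumour virus promoter. All 3 tumours carry this line, the labels name no agent, and there is 1 group without controls, so values are compared between RNAs and between tumours. The 3 tumours grew in separate mice of 1 strain, per the series design, and are numbered 1 to 3 in accession order. Their titles hold further numbers whose meaning is not given, so whether tumour 1 was prepared or sequenced apart from the others is unknown. A single line gives no spread between independent tumour lines.

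All 5 RNAs act as RNA and encode no protein. Rmrp and Rpph1 are the RNA components of RNase MRP and RNase P, related ribonucleases that share most of their protein subunits. RNase MRP takes part in ribosomal RNA maturation, and RNase P removes the leader from tRNA precursors. Terc is the RNA of telomerase and holds the template from which telomere repeats are copied. Malat1 is a long RNA of nuclear speckles, bodies rich in splicing factors, and Neat1 is the scaffold of paraspeckles, bodies that form around it. Rmrp and Rpph1 are made by RNA polymerase III, and the other members by RNA polymerase II.

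The sequences show how unlike these RNAs are in length and base composition, which bears on every level given below. They come from the GENCODE vM21 transcripts, are written 5′ to 3′ on the RNA strand with T for U, and are counted from 1 at the first base of the transcript. Rmrp is printed whole and Rpph1 to base 300 of 319. Capitals mark their 2 longest shared runs, CAGCGGGGC and GCAGTGCGA, of 9 bases each.

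Rmrp: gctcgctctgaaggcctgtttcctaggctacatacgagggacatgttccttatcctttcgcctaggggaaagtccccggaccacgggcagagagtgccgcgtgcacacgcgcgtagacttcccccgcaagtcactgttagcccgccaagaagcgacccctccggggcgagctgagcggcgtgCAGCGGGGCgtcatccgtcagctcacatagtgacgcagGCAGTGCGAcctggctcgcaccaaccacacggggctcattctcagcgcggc

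Rpph1: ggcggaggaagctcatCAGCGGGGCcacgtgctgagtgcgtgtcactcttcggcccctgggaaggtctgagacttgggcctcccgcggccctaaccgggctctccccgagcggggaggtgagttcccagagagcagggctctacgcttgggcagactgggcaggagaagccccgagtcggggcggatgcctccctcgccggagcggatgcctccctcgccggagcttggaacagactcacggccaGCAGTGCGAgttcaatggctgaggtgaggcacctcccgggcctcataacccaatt

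Of 12328 transcripts of 200 to 400 bases, 0.195% held the first run and 0.073% the second on the RNA strand. The runs were picked as the longest that this pair shares, so these shares cannot tell whether such sharing is unusual. That was not tested. The first run lies at bases 183 to 191 in Rmrp but at bases 17 to 25 in Rpph1. In Rmrp the second run lies at bases 221 to 229, and in Rpph1 at bases 246 to 254. Rpph1 also holds a direct repeat of 23 bases, at 182 to 204 and again at 203 to 225. For Terc the first 90 of 423 bases are printed, with capitals at the longest run that matches the complement of the telomere repeat TTAGGG.

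Terc: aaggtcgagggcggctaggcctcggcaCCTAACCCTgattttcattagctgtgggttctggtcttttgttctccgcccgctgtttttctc

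This template run, CCTAACCCT, lies at bases 28 to 36, and a run of 9 bases of the same repeat in any phase was found in the first 423 bases of 0.450% of 119954 transcripts. For Malat1 bases 6586 to 6754 of 6983 are printed, because this stretch holds the features by which Malat1 is stable without an ordinary poly(A) tail. The first 2 capitalised runs are rich in T and the third is a run of 12 A, which are known to fold into a triple helix. The capitals after them are the letters GGTTCAA, as found in the T loop of tRNAs, within a tRNA-like part that RNase P is known to cut from Malat1.

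Malat1: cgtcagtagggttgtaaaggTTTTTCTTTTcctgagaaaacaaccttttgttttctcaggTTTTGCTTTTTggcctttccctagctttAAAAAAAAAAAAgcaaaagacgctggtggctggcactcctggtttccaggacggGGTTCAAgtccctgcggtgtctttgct

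A run of 12 A was present in the last 500 bases of 2.07% of 111422 transcripts. GC content was 64.2% in Rmrp, 67.1% in Rpph1, 67.1% in Terc, 51.1% in Neat1 and 42.5% in Malat1. The loci in the deposited mm9 tables were 275, 325, 397, 3177 and 6982 bp long in the same order. The Neat1 locus is far shorter than the 20771-base form in GENCODE, which shares its start with the short form, so the value does not separate these forms. The tables give each locus as a symbol and a span, and no exon structure of mm9 was used.

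The tumours gave FPKM totals of 318509 to 375968, and the deposited intervals corresponded to totals of 11632569, 12349834 and 13330154 fragments in tumours 1, 2 and 3. Implied fragments are the number whose counting error equals the deposited one, (FPKM/standard error) squared. All 5 markers of luminal epithelium (Krt8, Krt18, Epcam, Cdh1 and Erbb2) were above 1 FPKM, whereas all 3 B-cell markers and 2 of 3 basal markers were below it. Erbb2 is also the gene of the transgene, so it is not an independent marker of this cell type. All 4 macrophage markers were above that level, so the tumours also held host cells.

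Rmrp had the highest deposited level of the 5 RNAs in each tumour. It was at 3869, 8028 and 9710.4 FPKM in tumours 1, 2 and 3, with a mean of 7202 ± 3007 FPKM (SD, n = 3), and it lies on mm9 chromosome 4 from 43505657 to 43505931. Tumour 1 was the low one. Rpph1 was at 3024, 6396 and 6319 FPKM, with a mean of 5246 ± 1925 FPKM (SD, n = 3; mm9 chromosome 14, 51427122 to 51427446). Here too tumour 1 was low and the other tumours lay close together. Among 21699 symbols with a status of OK, Rmrp ranked 6th, 5th and 2nd in tumours 1, 2 and 3, and Rpph1 ranked 10th, 6th and 4th. Together they took 2.16%, 3.84% and 4.40% of all FPKM. Of the implied fragments Rmrp gave only 0.0776%, 0.146% and 0.182%, and Rpph1 gave 0.0799%, 0.153% and 0.156%.

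Malat1 was at 1123, 538 and 719 FPKM in tumours 1, 2 and 3, with a mean of 793 ± 299.9 FPKM (SD, n = 3; mm9 chromosome 19, 5795690 to 5802671). Unlike Rmrp and Rpph1, it was highest in tumour 1. By fragments it was the most sampled of the 5, with 224231, 103234 and 153767 implied fragments, or 1.93%, 0.836% and 1.15% of each library. Its FPKM rank was 22nd, 83rd and 53rd. Neat1, 39630 bp away on the same chromosome (5842302 to 5845478), was at 60.1, 52.2 and 119 FPKM, with a mean of 77.2 ± 36.7 FPKM (SD, n = 3). Tumour 3 was the high one and the other tumours were close.

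Terc was the lowest, at 3.50, 8.37 and 12.1 FPKM in tumours 1, 2 and 3, with a mean of 7.98 ± 4.30 FPKM (SD, n = 3; mm9 chromosome 3, 96218360 to 96218756). It rested on 20, 46 and 74 implied fragments, and its deposited interval in tumour 1 ran from 1.93 to 5.07 FPKM. That interval did not overlap those of the other tumours, from 5.90 to 10.8 FPKM and from 9.27 to 14.9 FPKM, which overlapped each other. For Rmrp, Rpph1, Malat1 and Neat1 the counting error was at most 1.51% of the value, and their intervals did not overlap between tumours except for Rpph1 in tumours 2 and 3. Such intervals cover counting error only. At this depth 90.5% of 11193 symbols tested differed between tumours beyond counting error (Cochran's Q, adjusted p under 0.05, any ratio). The share of symbols whose intervals do not overlap was not counted.

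All 5 RNAs were above 1 FPKM by limma fitted over 18028 symbols, a call that 54.2% of those symbols received. The Benjamini-Hochberg adjusted p was 1.1e-04 for Terc, the weakest, and 1.1e-07 for Rmrp, Rpph1 and Malat1. The level of 1 FPKM is conventional, so this call says only that each RNA was clearly measured.

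The order Rmrp, Rpph1, Malat1, Neat1, Terc was the same in all 3 tumours on the FPKM scale. Rmrp exceeded Rpph1 by 0.43 ± 0.16 log2(FPKM + 0.1) units (SD, n = 3), a fold of 1.35, with FPKM ratios of 1.28, 1.26 and 1.54 in tumours 1, 2 and 3. The gap between these neighbours is small beside the spread of either RNA over tumours, but it had the same sign in 3 of 3 tumours. Rpph1 exceeded Malat1 by 2.71 ± 1.13 log2 units, with ratios of 2.69, 11.9 and 8.79, so that the gap was narrow in tumour 1. Without tumour 1 the excess over Malat1 was 3.35 log2 units for Rpph1 and 3.83 for Rmrp. Malat1 exceeded Neat1 by 3.39 ± 0.82 log2 units, and its ratio to Neat1 went from 18.7 in tumour 1 to 10.3 in tumour 2 and 6.02 in tumour 3. Neat1 exceeded Terc in all 3 tumours, Terc minus Neat1 being -3.33 ± 0.72 log2 units. Across the whole range Rmrp exceeded Terc by 9.87 ± 0.22 log2 units, a fold of 933.

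Each of these differences gave p = 0.25 (two-sided, exact permutation of signs over 3 tumours), which is the smallest p this design allows (adjusted p = 0.268 over 15 contrasts). No contrast could therefore pass 0.05, and what can be stated is the size and the sign in 3 of 3 tumours. Cross-gene FPKM ratios also depend on the length that each value was divided by.

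Short RNAs were divided by much less than their locus length in the deposited values. Relative to Malat1, 1 FPKM of Rmrp stood for 29.7% as many fragments per base of locus in each tumour. The share was 33.1% for Rpph1, 50.3% for Terc in tumour 1 and 96.4% for Neat1. When implied fragments were divided by the full locus length instead, Rmrp had 2821, 5306 and 6622 fragments per kb per 1000000 fragments and Malat1 had 2761, 1197 and 1652. In tumour 1 these levels were close, with a ratio of 1.02, against 4.43 and 4.01 in tumours 2 and 3. Rpph1 lay below Malat1 in tumour 1 on this scale, at 2458 fragments per kb per 1000000 fragments, a ratio of 0.890 to Malat1, and above it in the other tumours.

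On full lengths the mean excess of Rmrp over Malat1 shrank from 3.15 ± 1.18 to 1.39 ± 1.18 log2 units, that is from 8.86-fold to 2.63-fold. The excess of Rpph1 over Malat1 shrank from 6.55-fold to 2.17-fold, and Terc minus Neat1 went from -3.33 to -4.27 log2 units. Malat1 over Neat1, 2 long RNAs, hardly moved, at 10.5-fold and 10.9-fold. The sources used here do not state the length correction, so the place of the short RNAs against the long ones is uncertain by about this much, whereas Neat1 and Terc kept the lowest places on either scale.

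**Figure D1:**
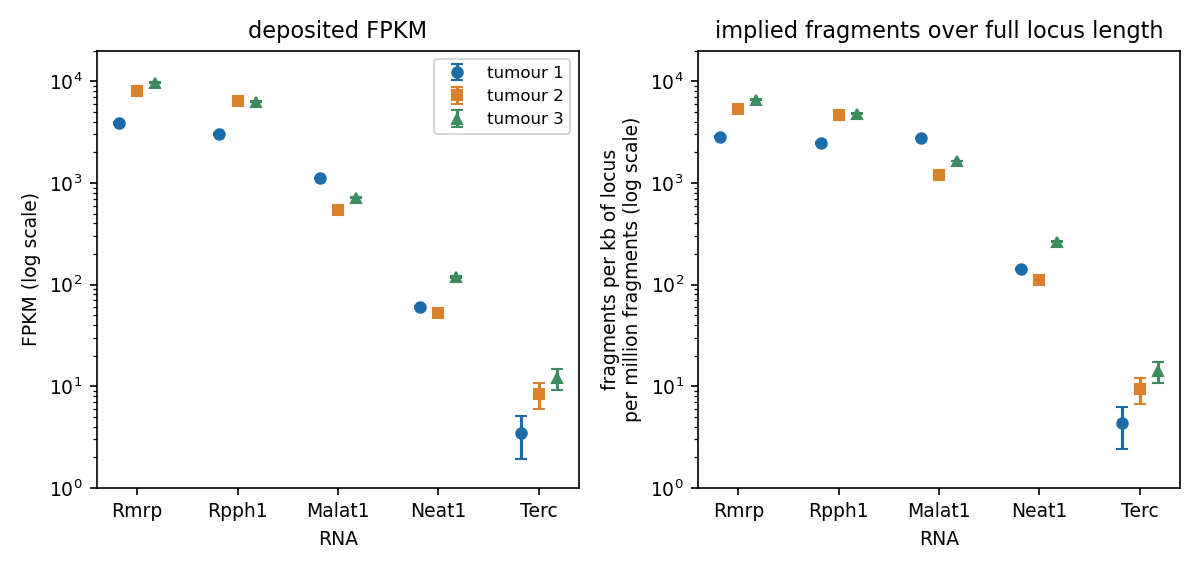
Level of each RNA in tumours 1, 2 and 3, as deposited FPKM on the left and as implied fragments per kb of locus per 1000000 fragments on the right, both on log axes, with bars for the counting interval of each library. On the right, Malat1 at 2761 in tumour 1 lies beside Rmrp at 2821, while on the left Rmrp is the highest in every tumour.

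Differences between the tumours were tested with Cochran's Q, which asks whether values differ beyond the deposited counting error and so compares 3 libraries. All 5 RNAs were called, with a ratio of highest to lowest tumour of at least 2, against 32.1% of 11193 symbols with a mean of at least 1 FPKM. The ratio was 2.51 for Rmrp, 2.12 for Rpph1, 3.45 for Terc, 2.09 for Malat1 and 2.29 for Neat1, beside a median of 1.75 over all symbols tested. For Terc, with the fewest fragments, Q was 32.5 (Benjamini-Hochberg adjusted p = 1.3e-07). At this depth 90.5% of symbols passed Q at any ratio and 67.8% at a ratio of at least 1.5, so the call rests mainly on the ratio. Tumour 1 was the lowest for Rmrp, Rpph1 and Terc, as for 59.7% of all symbols tested. With the call required as well, the share was 14.9%. Malat1 was highest in tumour 1, as were 28.7% of symbols, or 15.5% with the call. Rmrp, Terc and Neat1 were highest in tumour 3, as were 47.4% of symbols, and Rpph1 in tumour 2, as were 23.9%. Malat1 and Neat1 were lowest in tumour 2, as were only 9.18% of symbols.

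GC content went with part of these directions. Among genes of 60 to 70% GC, the class of Rmrp, Rpph1 and Terc, the median gene lay 0.49 log2 units under its own mean in tumour 1 (-0.49) and 0.35 over it in tumour 3 (n = 366 genes). In this class 92.3% of genes were lowest in tumour 1. Among 2184 genes of 40 to 45% GC, the class of Malat1, the median gene lay 0.40 log2 units over its mean in tumour 1, and 68.5% of genes were highest there. The 2891 genes of 50 to 55% GC, the class of Neat1, were at -0.39, 0.11 and 0.27 in tumours 1, 2 and 3, and 85.1% were lowest in tumour 1. Neat1 differed from its class in being lowest in tumour 2. Malat1 was also lowest in tumour 2, whereas its class had medians of -0.01 in tumour 2 and -0.39 in tumour 3.

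**Figure D2:**
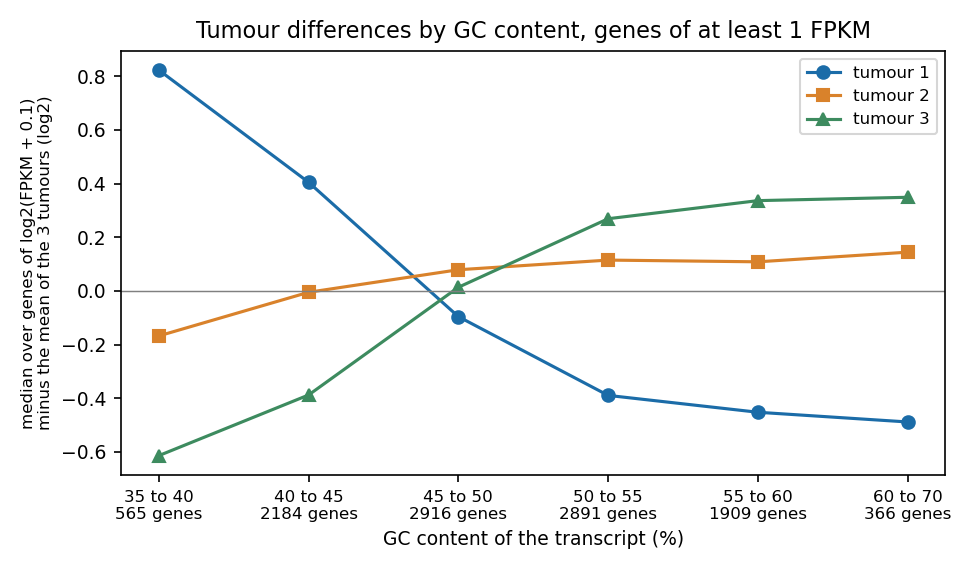
Median over genes of log2(FPKM + 0.1) minus the mean of the 3 tumours, by class of transcript GC content, for genes of at least 1 FPKM; lines join the classes of each tumour. Tumour 1 goes from 0.82 in the lowest class to -0.49 in the highest, and tumour 3 from -0.61 to 0.35.

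With trends of GC content and length removed in each tumour, the ribonuclease RNAs became nearly level between tumours. Rmrp was then at 5946, 7024 and 7221 FPKM in tumours 1, 2 and 3, a ratio of 1.21. Rpph1 was at 4702, 5539.8 and 4692 FPKM, a ratio of 1.18. These small differences still exceeded counting error (Cochran's Q, adjusted p = 2.4e-61 for Rmrp and 1.9e-65 for Rpph1). Terc was at 5.43, 7.26 and 8.98 FPKM, a ratio of 1.65 that no longer exceeded counting error (Cochran's Q, adjusted p = 0.10). Tumour 1 stayed the lowest for Rmrp and Terc, by far less than before. With the GC trend alone removed, an alternative chosen after seeing the data, the ratios were 1.40 for Rmrp, 1.32 for Rpph1 and 1.89 for Terc. The Terc difference then still exceeded counting error (Cochran's Q, adjusted p = 0.023).

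The long RNAs still differed between tumours, but not in the same order for Malat1. Malat1 was at 771, 568 and 991 FPKM with the trends removed, so that tumour 3 and not tumour 1 was then highest, and its ratio of 1.75 was under the required 2. Neat1 was at 76.8, 47.8 and 102 FPKM, a ratio of 2.13, and was the 1 member of 5 still called, beside 16.9% of symbols. Both were then lowest in tumour 2 and highest in tumour 3, and the Malat1 to Neat1 ratio was 10.03, 11.9 and 9.74 in tumours 1, 2 and 3. The SD of their log2 difference went from 0.82 to 0.15 (n = 3), while removing trends leaves the mean of each RNA in place by construction. Any true difference that follows GC content is removed with the trends, and the Rmrp locus is shorter than any used to fit them.

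Calls on single RNAs also rested on scaling and on single tumours. With median-of-ratios scaling the ratio of Rmrp was 1.97 and that of Rpph1 1.73, under the required 2. With equal FPKM totals of 1000000 only Rpph1 fell short, at 1.83. Without tumour 1 the ratios were 1.21 for Rmrp, 1.01 for Rpph1, 1.44 for Terc and 1.34 for Malat1, and only Neat1 was called. Without tumour 3 Neat1 had a ratio of 1.15, and without tumour 2 Malat1 had 1.56 and Neat1 1.99, none of them called. Over all symbols 3596 were called as deposited, 3112 with median-of-ratios scaling and 3928 with totals of 1000000. Without tumours 1, 2 and 3 in turn, 633, 3282 and 1560 symbols were called.

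**Figure D3:**
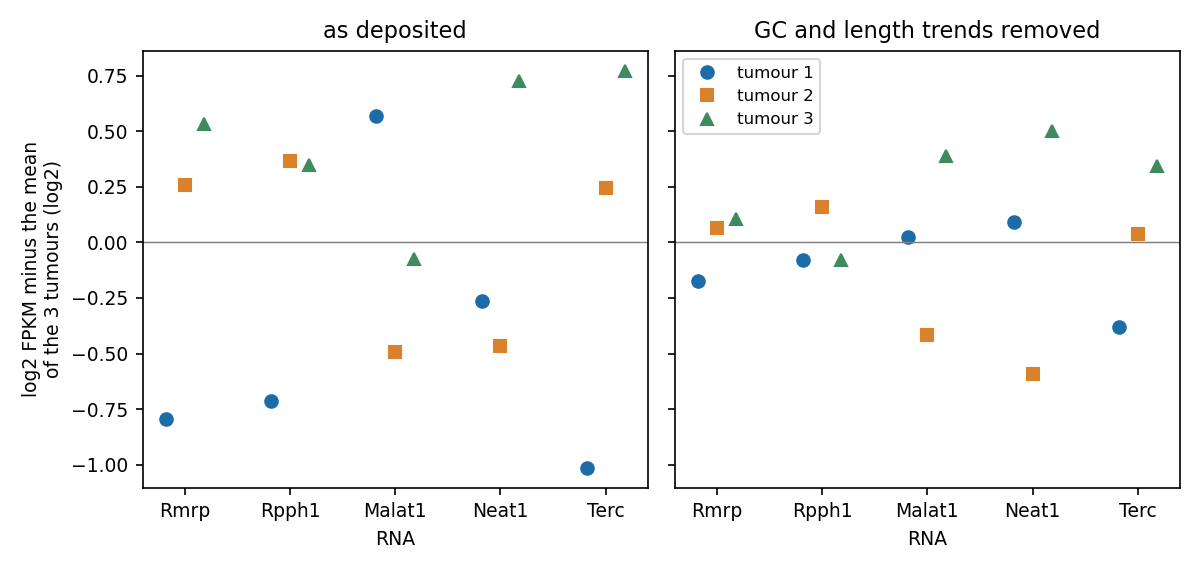
Log2 FPKM of each RNA in tumours 1, 2 and 3 minus its mean over the tumours, as deposited on the left and with GC and length trends removed on the right. On the left tumour 1 is the lowest for Rmrp, Rpph1 and Terc and the highest for Malat1, and on the right Rmrp and Rpph1 lie close to 0.

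Markers of host cells also differed between tumours. The 4 macrophage markers summed to 166, 268 and 656 FPKM in tumours 1, 2 and 3, the same order as Rmrp and Terc. All 4 were called, beside 32.1% of all symbols tested. The 3 adipocyte markers summed to 59.2, 43.4 and 187 FPKM, the order of Neat1, with 2 of 2 tested being called. The 3 T-cell markers summed to 1.18, 2.79 and 5.82 FPKM, also in the order of Rmrp and Terc, with Cd3g, the 1 tested, being called. Cd8a was highest in tumour 2. The 4 fibroblast markers summed to 111, 187 and 181 FPKM and the 3 endothelial markers to 9.66, 15.4 and 14.2 FPKM, with 1 called in each. Both sums were in the order of Rpph1, which hardly differed between tumours 2 and 3 (ratio 1.01). Single markers did not all keep that order. Col3a1 and Cdh5 were highest in tumour 3, and Dcn, at 17.2, 10.0 and 10.8 FPKM, in tumour 1. The 5 luminal markers summed to 901, 1254 and 1180 FPKM, also in the order of Rpph1, and none was called. Among them Krt8 was highest in tumour 3, and Epcam and Erbb2 in tumour 1. With the trends removed 2 of 4 macrophage, 2 adipocyte, 1 T-cell, 1 fibroblast and 0 endothelial markers were called, beside 16.9% of symbols. None of the 3 B-cell markers reached 0.1 FPKM in any tumour. The part of host cells in the levels of the 5 RNAs was not tested, and in bulk tissue more cells of a type cannot be told apart from more RNA per cell.

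The protein subunits of RNase P and RNase MRP were far lower than their RNAs. Of 11 such genes, 9 were above 1 FPKM and 2 below, with a median of 5.86 FPKM. The highest were Pop5 at 35.5 ± 13.4, Pop7 at 12.2 ± 3.92 and Pop4 at 6.54 ± 1.00 FPKM (SD, n = 3). The lowest were Rpp40 at 0.460 ± 0.143 FPKM and Rpp25, listed at 0 in tumour 1, at 0.0618 FPKM in tumour 2 and at 0.0277 FPKM in tumour 3. Rmrp exceeded the mean of the list by 10.82 ± 0.54 log2 units and Rpph1 did so by 10.38 ± 0.45 (p = 0.25 each by the exact sign-flip permutation test, positive in 3 of 3 tumours). These excesses were 9.97 and 9.53 when Rpp40 and Rpp25, under 0.5 FPKM, were left out of the list mean. A protein gene and its RNA differ in length, polyadenylation and turnover, so this is a ratio of RNA levels and not of subunits.

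Between tumours 1 of 9 tested subunit genes was called, beside 32.1% of all symbols, namely Pop5 at 21.2, 37.3 and 47.9 FPKM. In 6 of 9 tumour 1 was the lowest, close to the background share. With the trends removed Pop5 had a ratio of 1.30. Rpp21 was called instead, with a ratio of 2.38, beside 16.9% of all symbols. The SD of the Rmrp excess over the list went from 0.54 to 0.16 log2 units with the trends removed.

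Genes of tRNA end processing, which include the mitochondrial RNase P proteins, were all above 1 FPKM (7 of 7). Ssb, which encodes the La protein that binds new RNA polymerase III transcripts, was at 90.8, 22.9 and 10.4 FPKM in tumours 1, 2 and 3. It was high in tumour 1, where Rmrp and Rpph1 were low. Of the list 3 of 7 were called, beside 32.1% of all symbols, the others being Trnt1, the CCA-adding enzyme, with a ratio of 6.05, and Rg9mtd1, the older symbol of Trmt10c of mitochondrial RNase P, with 6.28. All 3 remained called with the trends removed, with ratios of 3.36, 2.86 and 3.53, beside 16.9% of all symbols. Hsd17b10, another subunit of mitochondrial RNase P, was at 36.8 ± 12.02 FPKM and Elac2, which cuts the trailer from tRNA precursors, at 9.36 ± 2.30 FPKM. Prorp, the protein-only nuclease of mitochondria (listed as 1110008L16Rik), was at 4.92 ± 0.983 FPKM, and Elac1 was the lowest at 1.65 ± 0.289 FPKM.

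The machinery of RNA polymerase III, which makes Rmrp and Rpph1, was measured throughout. Of 32 genes 31 were above 1 FPKM, led by Polr1d, a subunit shared with RNA polymerase I, at 97.2 ± 19.6 FPKM. Next came Gtf3a at 17.03 ± 5.32 FPKM and Maf1, a repressor of the polymerase, at 15.1 ± 4.72 FPKM. Polr3g, at 0.732 ± 0.381 FPKM, was the exception, and Snapc1, of the complex that binds promoters of the Rmrp and Rpph1 type, was at 1.97 ± 0.455 FPKM. Between tumours 8 of 31 were called, beside 32.1% of all symbols tested. Among them Brf2, the initiation factor used at such promoters, was at 2.56, 6.76 and 4.94 FPKM and lowest in tumour 1 like Rmrp and Rpph1. Bdp1 was at 4.84, 1.64 and 1.44 FPKM and Gtf3c3 at 9.53, 6.30 and 2.83 FPKM, both highest in tumour 1. With the trends removed 1 of 31 was called, Zfp143, with a ratio of 2.06, beside 16.9% of all symbols.

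On the FPKM scale telomerase had an RNA level near that of its protein genes. Terc minus the mean of 12 telomerase and assembly genes was 0.42 ± 0.65 log2 units, positive in 2 of 3 tumours (p = 0.50, exact sign-flip permutation test), so no order was shown. Of the 12 genes 10 were above 1 FPKM and 2 were not separated from it. Tert, the catalytic subunit, was at 1.41, 1.29 and 1.19 FPKM, a mean of 1.30 ± 0.111 FPKM, and Naf1, an assembly factor, at 0.865 ± 0.158 FPKM. The box H/ACA proteins that hold Terc were uneven. Nop10 was at 41.97 ± 12.1, Nhp2 at 32.5 ± 12.3, Dkc1, the pseudouridine synthase dyskerin, at 3.94 ± 2.56 and Gar1 at 1.75 ± 0.573 FPKM. These proteins serve other RNAs as well.

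Between tumours 4 of 11 tested genes of this list were called, beside 32.1% of all symbols. Dkc1 was at 6.78, 3.23 and 1.81 FPKM, highest in tumour 1, where Terc was lowest. Wrap53, which guides Terc to Cajal bodies, was at 1.20, 1.90 and 2.96 FPKM, the order of Terc, and Nhp2 was at 20.1, 32.6 and 44.7 FPKM. With the trends removed only Dkc1 remained called, with a ratio of 2.57, beside 16.9% of all symbols. Of 7 shelterin genes, which cap telomeres, 6 were above 1 FPKM and 1, Pot1b at 0.696 ± 0.103 FPKM, was not separated from it. Terf1, at 7.82, 4.64 and 2.33 FPKM, was the 1 of 6 tested that was called, beside 32.1% of all symbols, and its ratio was 1.47 with the trends removed. Acd was at 4.60 ± 0.363 and Tinf2 at 4.08 ± 1.39 FPKM, and Pot1a was the lowest called above the level, at 2.18 ± 0.409 FPKM.

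Neat1 lay among the highest of the paraspeckle genes. All 12 protein genes of the list were above 1 FPKM, with Hnrnpk at 150.3 ± 22.3, Nono at 103 ± 13.6 and Ewsr1 at 37.7 ± 4.67 FPKM, and Hnrnpk and Nono exceeded Neat1 in the mean. Sfpq, the partner of Nono that binds Neat1, was at 29.5 ± 4.78 FPKM. Among the low members was Hnrnph3 at 2.35 ± 1.34 FPKM. Neat1 exceeded the list mean by 2.44 ± 0.63 log2 units, positive in 3 of 3 tumours. Nono, at 87.9, 114 and 107 FPKM, differed little between tumours while Neat1 was highest in tumour 3. Of 12 genes 1 was called, beside 32.1% of all symbols, Hnrnph3 with 0.853 FPKM in tumour 2. With the trends removed 3 were called, beside 16.9% of all symbols.

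Malat1 was above every protein gene of nuclear speckles on the list. All 14 were above 1 FPKM, with a median of 28.7 FPKM. Srsf5, a splicing factor, was highest at 89.2 ± 23.6 FPKM, followed by Srsf3 at 51.2 ± 2.03 and Son, a core speckle protein, at 43.8 ± 4.78 FPKM. Malat1 exceeded the list mean by 5.00 ± 0.41 log2 units, positive in 3 of 3 tumours. The lowest were Srrm1 at 9.51 ± 0.724 FPKM and Pnn at 7.64 ± 6.70 FPKM. Pnn (15.2, 5.12 and 2.56 FPKM), Rbm25 (28.5, 9.52 and 6.89 FPKM) and Sf3b1 (67.2, 34.7 and 19.4 FPKM) were the 3 of 14 called, beside 32.1% of all symbols, and were highest in tumour 1, as Malat1 was. With the trends removed Pnn kept a ratio of 3.79, while Rbm25 and Sf3b1 had 1.31 and 1.66. Of the 14 genes 4 were then called, beside 16.9% of all symbols.

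**Figure D4:**
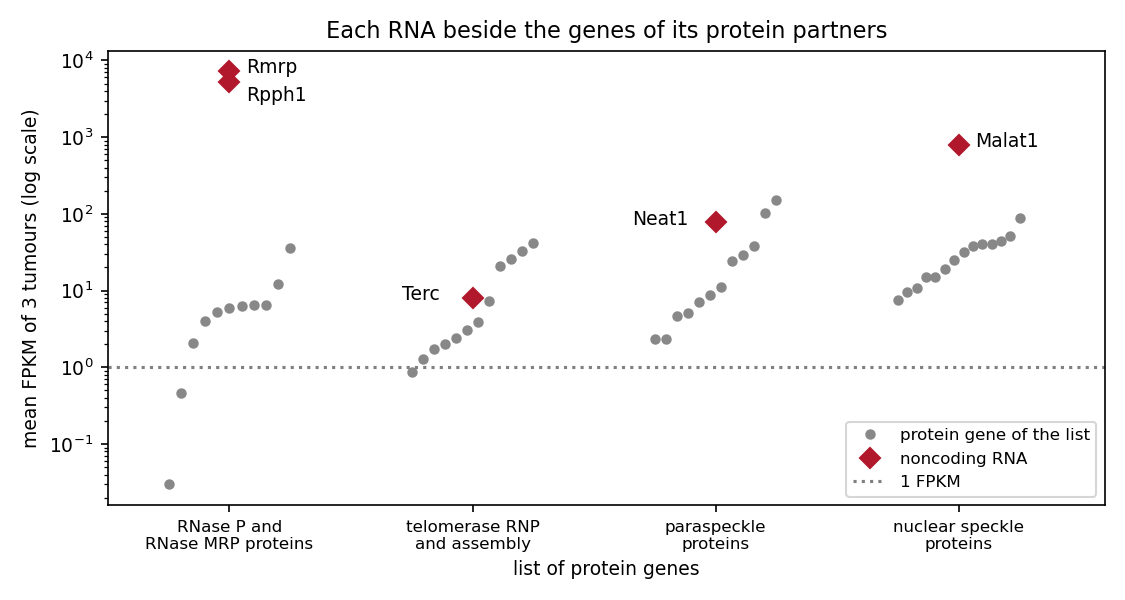
Mean FPKM of 3 tumours on a log axis for each noncoding RNA and for the genes of the protein list known to act with it. Rmrp, Rpph1 and Malat1 lie above every protein gene of their lists, whereas Terc at 7.98 FPKM and Neat1 at 77.2 FPKM lie within theirs.

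Of 21 symbols listed 10 were found, and 9 of these were above 1 FPKM and 1 below. Rnu12, of the minor spliceosome, was at 3127, 6064 and 935 FPKM, highest in tumour 2, as Rpph1 was, and lowest in tumour 3, where Rmrp was highest. Rnu11, its partner, was at 1052, 1946 and 313 FPKM and Vaultrc5, a vault RNA, at 7.37, 16.5 and 3.33 FPKM, in the same order. Of 9 tested 5 were called, beside 32.1% of all symbols, with ratios of 6.48 for Rnu12, 6.22 for Rnu11 and 4.98 for Vaultrc5, and with the trends removed these were 7.19, 6.99 and 5.78. The loci of Rnu12 and Rnu11 are shorter than any used to fit the trends. Scarna10, a guide RNA of Cajal bodies, was at 1003, 2532 and 1538 FPKM, the order of Rpph1. It rested on only 14, 34 and 23 implied fragments in tumours 1, 2 and 3. Rn4.5s had the order of Rpph1 too, at 452, 686 and 475 FPKM. Rnu73b, Scarna2 and Scarna17 rested on 2 to 6 implied fragments in each tumour. Scarna13 was at 329, 603 and 817 FPKM, the order of Rmrp, and was the 1 of 9 highest in tumour 3. It had 751, 1326 and 2000.01 implied fragments, and its ratio was 1.37 with the trends removed. The Scarna13 locus, at 273 bp, is also shorter than any used to fit the trends. Rnu7 was lowest, at 0.247 ± 0.1000 FPKM over a deposited locus of 3034 bp, and Vaultrc5 second lowest.

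Malat1 and Neat1 had the highest means of the long noncoding RNAs examined. Of 26 others listed 23 were found, and 16 were above 1 FPKM, 3 below and 4 not separated from it. The highest was 2900097C17Rik, the older symbol of Norad, at 49.6 ± 11.4 FPKM, under the Neat1 mean, although at 60.6 FPKM it was level with Neat1 in tumour 1. It was followed by Xist at 47.3 ± 0.762 and Tug1 at 23.1 ± 14.5 FPKM. Tug1 (39.7, 16.6 and 12.9 FPKM), Dleu2 (1.73, 0.805 and 0.659 FPKM) and Snhg12 (7.59, 13.05 and 17.9 FPKM) had the largest ratios of 4 called among 18 tested, beside 32.1% of all symbols. Like Malat1, Tug1 was highest in tumour 1, and with the trends removed its ratio was 1.07. Of the 18 tested 6 were then called, beside 16.9% of all symbols. Xist was among these, at 28.5, 56.2 and 65.9 FPKM in tumours 1, 2 and 3 with the trends removed, a ratio of 2.32. The lowest were Miat, at 0.0140 FPKM on average, and Tsix, at 0.0408 FPKM, which overlaps Xist in antisense and may share its reads where strand was not used.

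Genes next to the 5 loci did not have similar levels. Parp2, 174 bp from Rpph1, was at 3.30, 3.74 and 2.36 FPKM, and Rpph1 exceeded it 1674-fold in the mean. Tep1, a telomerase-associated protein gene 16289 bp from Rpph1, was at 2.38 ± 0.9498 FPKM, and Ccnb1ip1 was under 0.1 FPKM in each tumour. Ccdc107, 344 bp from Rmrp, was at 8.57, 8.28 and 16.3 FPKM. Within 20 kb of Rmrp also lay E130306D19Rik at 1.47 ± 0.283, Car9 at 1.88 ± 0.295 and Sit1 at 0.0342 ± 0.0354 FPKM. Frmd8, 5495 bp from Neat1, was at 7.60, 15.1 and 11.7 FPKM, lowest in tumour 1 unlike Neat1. No other gene lay within 20 kb of Malat1 or Terc. Of the neighbours tested only Tep1 was called between tumours. Ccdc107 and Frmd8 fell just under the required ratio of 2, at 1.96 and 1.98. Sit1 and Ccnb1ip1, with means under 1 FPKM, were not tested.

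Genes with the most similar values over the tumours were sought among up to 3759 symbols with a mean of at least 10 FPKM, by the largest difference of centred log2 values over 3 tumours. With 3 samples such likeness is common for some patterns: 44 symbols lay within 0.1 log2 units of Rmrp and 63 of Rpph1, but 7 of Terc, 2 of Neat1 and 1 of Malat1. Nearest to Rmrp were Cxcl16 (0.0066), Hist1h4k (0.0099) and Hist1h4j (0.0121), the histone genes having near-identical copies. Nearest to Rpph1 were Pkm2, the older symbol of a pyruvate kinase gene (0.0035), Acot1 (0.0177) and Wwp2 (0.0178). Nearest to Terc were Cd72 (0.0138), the lysosomal protease gene Ctsz (0.0189) and the complement gene C1qa (0.0207), which macrophages express. The counting error of Terc was 22.4%, 14.7% and 11.6% of its value in tumours 1, 2 and 3. That is wider than these differences, so which genes lay nearest to Terc is not resolved. Nearest to Neat1 were Gm11428 (0.0349), Oas1a (0.0858) and Nr4a1 (0.120), and nearest to Malat1 were Ifit3 (0.0799), Deptor (0.117) and Slc26a2 (0.131). Among the 5 RNAs the closest pair was Rmrp and Rpph1 (0.185), followed by Rmrp and Terc (0.227), and the farthest was Terc and Malat1 (1.57).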

How the data were processed

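RNA was measured in 3 tumours of 1 group. Per the file headers, the authors deposited FPKM values for each gene, with lower and upper interval bounds and a status. TopHat, Cufflinks and mm9 appear in the submitters' processing notes, without roles. The library kit is directional per the labels' protocols; the counting strand, tool versions and annotation were not given in the sources used here. Each file held 22310 rows. Rows of 221 repeated symbols were added up, and 182 symbols with a status other than OK were left out. The distance from a value to a bound was taken as 2 standard errors. FPKM are not counts, and a count model was not used.

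Levels were compared with 1 FPKM on log2((FPKM + 0.1)/(1 + 0.1)) by an intercept model with trend and robust moderation (limma 3.58.1, R 4.3.3) and Benjamini-Hochberg adjustment. Folds on the log2(FPKM + 0.1) scale understate low genes. Tumours were compared by Cochran's Q (2 degrees of freedom, mean of at least 1 FPKM, adjusted p under 0.05, ratio of at least 2), and RNAs by an exact permutation of signs. The code (Python 3.11.15) was tested on simulated data. GC content came from GENCODE vM21 transcripts by gene name (98.3% of symbols), and trends from lowess with a span of 0.3 on loci of at least 300 bp. Alternatives were other pseudocounts, filters, ratios, scalings and lengths, removal of trends, and leaving out each tumour. Named genes were the 5 RNAs, the 3 highest and 2 lowest of each list, up to 3 called genes per list by ratio, genes within 20 kb, the 3 most similar genes per RNA and the markers; other list genes were named after their values were seen. The values of 1 gene under this rule are not reported here. The RNAs and lists were chosen with earlier results of these data known. Older symbols were matched for 9 genes.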

Additional observations from a re-analysis of the deposited data

How the results depend on the processing

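All 15 contrasts had the same sign in 80 values under alternatives that could move them. These were pseudocount, leaving out a tumour, list summaries for contrasts with protein lists, and full lengths for contrasts between RNAs. Contrasts with protein lists, that of Terc with telomerase genes included, were not run on full lengths, so their signs there are unknown. Scalings act on all genes of a tumour alike and trend removal keeps means, so the sign was fixed there by construction. All 5 RNAs were above 1 FPKM in each of 9 alternatives of the level test. The number of RNAs called between tumours was 5 as deposited, 3 with median-of-ratios scaling, 3 with equal totals over loci of at least 300 bp, 1 with GC and length trends removed and 1 with the GC trend alone removed, an alternative chosen after seeing the data; it was 1 to 4 when each tumour was left out in turn. Over all genes 3596 were called as deposited, 7590 at a ratio of at least 1.5, 1055 at a mean of at least 10 FPKM, 1886 with both trends removed, 1963 with the GC trend removed and 633 to 3282 without each tumour, the lowest without tumour 1. With median-of-ratios scaling 3112 genes were called, and 3143 with equal totals over loci of at least 300 bp. A ratio of 1.5 or a mean of 10 FPKM changes the count by construction. The cause of the other changes was not tested. Genes below 1 FPKM numbered 5864, and 109 when a mean of at least 0.5 FPKM was required, which removes them by construction; calls above were then 98.9% of level calls, against 62.5%, and 73.4% with totals of 1000000, a scaling that shifted tumours by 1.65, 1.41 and 1.46 log2 units. Median-of-ratios scaling shifted them by 0.21, -0.07 and -0.13. Terc rests on 20 fragments in tumour 1, which limits its precision there. No paired analysis was possible because there is a single group and so no groups share replicate numbers; contrasts between RNAs are taken within each tumour.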
